A study of Mus musculus with 6 samples.

Results

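The 8 genes described here encode the apolipoproteins that enterocytes place on lipid particles and the proteins that assemble them. They are Apoa1, Apoa4, Apoc2, Apoc3, Apob, Apoe, Mttp and Apobec1, chosen by symbol, and each had 1 row among the 32285 genes of every count matrix. Organoids grown from mouse duodenal crypts were profiled by droplet single-cell RNA sequencing of transcript 3′ ends on day 3 of culture, and the genes were followed in 6 libraries. WT organoids, from 10-week-old adult mice, received DMSO (-EIPA, replicates 1 and 2) or 5 µM EIPA (+EIPA, replicates 1 and 2), an amiloride derivative that inhibits sodium-hydrogen exchange. The other 2 libraries came from WT organoids carrying a lentiviral, Dox-inducible CRISPR-Cas9 construct. One was grown without Dox (-Dox) and the other with 2 µg/mL Dox (+Dox). By the study's methods, single clones were raised from organoids that resisted puromycin. Clone and construct therefore cannot be told apart where these 2 libraries are set beside the -EIPA and +EIPA libraries. Cells of every library were sorted as live, and those of +Dox also as GFP-positive, so the gate and the treatment cannot be told apart there. Each -EIPA and +EIPA group is n = 2 libraries, and each Dox condition is 1 library with no replicate.

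Enterocytes, the absorptive cells of the villus, take up fatty acids and monoglyceride from the lumen, rebuild triglyceride and pack it into chylomicrons. ApoB is the structural protein of a chylomicron. The microsomal triglyceride transfer protein, encoded by Mttp, loads lipid onto ApoB in the endoplasmic reticulum, and the deaminase APOBEC1 edits Apob mRNA so that the intestine makes the shorter form of the protein. ApoA-I and ApoA-IV join the particle surface, as do ApoC-II, which activates lipoprotein lipase, and ApoC-III, which inhibits it. ApoE, a ligand of receptors that clear remnant particles, is made mainly by liver and macrophages. In the intestine most of these genes are known as products of absorptive cells that have left the crypt.

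The genes lie in 2 clusters and 3 single loci, given here by the GENCODE annotation of GRCm38. Apoa1 (chr9:46228580-46230466, plus strand), Apoc3 (chr9:46232933-46235636, minus strand) and Apoa4 (chr9:46240696-46243459, plus strand) stood within 14880 bases, with 2466 bases between Apoa1 and Apoc3 and 5059 between Apoc3 and Apoa4. Apoc2 (chr7:19671579-19677941) and Apoe (chr7:19696109-19699188) were both on the minus strand, 18167 bases apart. Apob (chr12:7977648-8016835, plus strand), Mttp (chr3:138089854-138144968, minus strand) and Apobec1 (chr6:122577792-122602444, minus strand) were alone. The antisense lncRNA Gm47528 overlaps the start of Apoa4, whereas the tags counted here come from transcript 3′ ends. Its effect on the counts was not tested.

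The promoters of 5 of them are shown because these 5 differ in the responses reported below, with Apoc2 at the largest fold change of the 8 genes in mature and early enterocyte-like cells (1.76 and 2.93 on the log2 scale with EIPA) and Apobec1 at 0.14 and 0.11. Each sequence is the part of the 250 bases before the transcription start that lies outside protein-coding exons, from the RefSeq promoter table of GRCm38, read 5′ to 3′ on the strand of the gene. Capitals mark CAAAGT or CAAAGG on either strand, letters found within some HNF4-type sites (HNF4A is a nuclear receptor of enterocytes and hepatocytes). They are not a whole site, and the choice was made after other letter patterns had been looked at. The windows are chr9:46228380-46228579 for Apoa1, chr9:46240594-46240695 for Apoa4, chr7:19677942-19678082 for Apoc2, chr12:7977427-7977647 for Apob and chr6:122602445-122602694 for Apobec1.
Apoa1: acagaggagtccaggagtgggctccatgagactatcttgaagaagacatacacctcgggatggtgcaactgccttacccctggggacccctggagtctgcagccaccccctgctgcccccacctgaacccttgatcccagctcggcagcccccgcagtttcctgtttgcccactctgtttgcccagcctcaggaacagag
Apoa4: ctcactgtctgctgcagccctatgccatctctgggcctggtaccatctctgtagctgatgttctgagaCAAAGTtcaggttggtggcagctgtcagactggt
Apoc2: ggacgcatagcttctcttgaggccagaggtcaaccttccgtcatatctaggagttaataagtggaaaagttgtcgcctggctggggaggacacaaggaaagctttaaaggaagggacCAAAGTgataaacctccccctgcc
Apob: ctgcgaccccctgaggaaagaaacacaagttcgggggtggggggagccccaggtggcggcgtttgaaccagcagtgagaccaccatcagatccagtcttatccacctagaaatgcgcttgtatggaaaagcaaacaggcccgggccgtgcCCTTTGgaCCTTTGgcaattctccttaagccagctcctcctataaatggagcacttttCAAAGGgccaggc
Apobec1: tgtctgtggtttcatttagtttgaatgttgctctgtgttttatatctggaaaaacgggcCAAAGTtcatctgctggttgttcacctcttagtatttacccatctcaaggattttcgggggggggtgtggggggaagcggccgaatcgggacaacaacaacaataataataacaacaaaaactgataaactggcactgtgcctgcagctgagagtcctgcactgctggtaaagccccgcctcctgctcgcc
Apoa4, Apoc2 and Apobec1 each held 1 match to CAAAGT, Apob held 3 matches to CAAAGG and Apoa1 held none. Of 32851 promoter entries of all genes, 12.6% held CAAAGT in the 250 bases before the start, 17.6% held CAAAGG and 27.8% held at least 1 of them, so matches are common. A match is a description of letters and no evidence that a factor binds, and the lack of a match is no evidence that a site is missing. Among the 8 genes, 7 had an entry (Apoc3 did not).

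The kept cells numbered 87954 of 123544 barcodes, 12083 to 18211 per library, with 161670015 to 239368573 UMIs (unique molecular identifiers, each 1 captured transcript) and a median of 11477.5 to 17020 UMIs per cell. Clusters were named from marker genes that did not include the 8 genes, and the 8 genes were left out of clustering too. Mature enterocyte-like cells, which joined 3 clusters, made up 6.31% to 11.4% of cells in 5 libraries and 16.7% in +Dox, and early enterocyte-like cells 8.46% to 12.01%. The 14 markers of immune, stromal and endothelial cells summed to 10.8 and 13.8 CPM (counts per 1000000 UMIs) in -EIPA, 14.7 and 8.04 in +EIPA, 1.20 in -Dox and 1.39 in +Dox. Vim made up most of this in the EIPA libraries (6.33 to 12.6 CPM), each of the others stood at most at 0.817 CPM, and the macrophage marker Adgre1 and the endothelial marker Cdh5 were at 0 UMIs in every library. Vim was also among the leading genes of a cluster of hormone-secreting cells led by Chgb and Chga. In mature enterocyte-like cells the 14 markers summed to 1.87 and 2.49 CPM in -EIPA and 1.92 and 2.57 in +EIPA. Pairs of libraries shared at most 143 cell barcodes.

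Members were set side by side as CPM, the summed UMIs of a gene in a class over all UMIs of that class in that library. A 3′ tag is counted once per transcript, so gene length does not enter. Fewer cells expressing a gene and less RNA per cell cannot be told apart in such sums.

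In mature enterocyte-like cells the surface apolipoproteins dominated. Apoa1 stood at 5448 and 3162 CPM in the -EIPA libraries, 9368 and 10408 in +EIPA, 2374 in -Dox and 6455 in +Dox, and so was the highest of the 8 genes in every library. Both +EIPA libraries lay above both -EIPA libraries, and the lowest value was that of -Dox. Apoa4 followed with 2064 and 773 CPM in -EIPA, 2656 and 2374 in +EIPA, 982 in -Dox and 2162 in +Dox. Its lower +EIPA value exceeded the higher -EIPA value by little, while the -EIPA libraries themselves lay far apart. Together the 8 genes gave 1.06% and 0.563% of the UMIs of mature enterocyte-like cells in -EIPA, 1.67% and 1.82% in +EIPA, 0.532% in -Dox and 1.31% in +Dox.

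Apoc3 and Apoc2 encode the regulators of lipoprotein lipase. The inhibitor Apoc3 had 979 and 505 CPM in -EIPA, 1600 and 2129 in +EIPA, 827 in -Dox and 2151 in +Dox in mature enterocyte-like cells. The activator Apoc2 had 627 and 375 CPM in -EIPA, 1324 and 1719 in +EIPA, 167 in -Dox and 713 in +Dox. Apoc3 was above Apoc2 in all 6 libraries, and the gap was widest in both libraries of the CRISPR-Cas9 organoids.

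The assembly genes Apob and Mttp stood below Apoa1, Apoa4 and Apoc3 in every library, and on either side of Apoc2. Apob stood in mature enterocyte-like cells at 728 and 373 CPM in -EIPA, 892 and 825 in +EIPA, 530 in -Dox and 925 in +Dox. Mttp stood at 703 and 422 CPM in -EIPA, 876 and 737 in +EIPA, 406 in -Dox and 697 in +Dox, so that the order of Apob and Mttp changed between libraries and the pair cannot be ranked. The editing enzyme Apobec1 had 31.7 and 19.5 CPM in -EIPA, 26.9 and 23.6 in +EIPA, 28.6 in -Dox and 32.5 in +Dox, with +EIPA inside the range of -EIPA. Apoe was near the limit of detection, with 6 to 23 UMIs per library in this class and at most 3.43 CPM in any class and library. The summed level of 21 mature enterocyte marker genes in the same cells was 16037 and 7785 CPM in -EIPA, 20096 and 17501 in +EIPA, 23429 in -Dox and 33580 in +Dox.

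**Figure D1:**
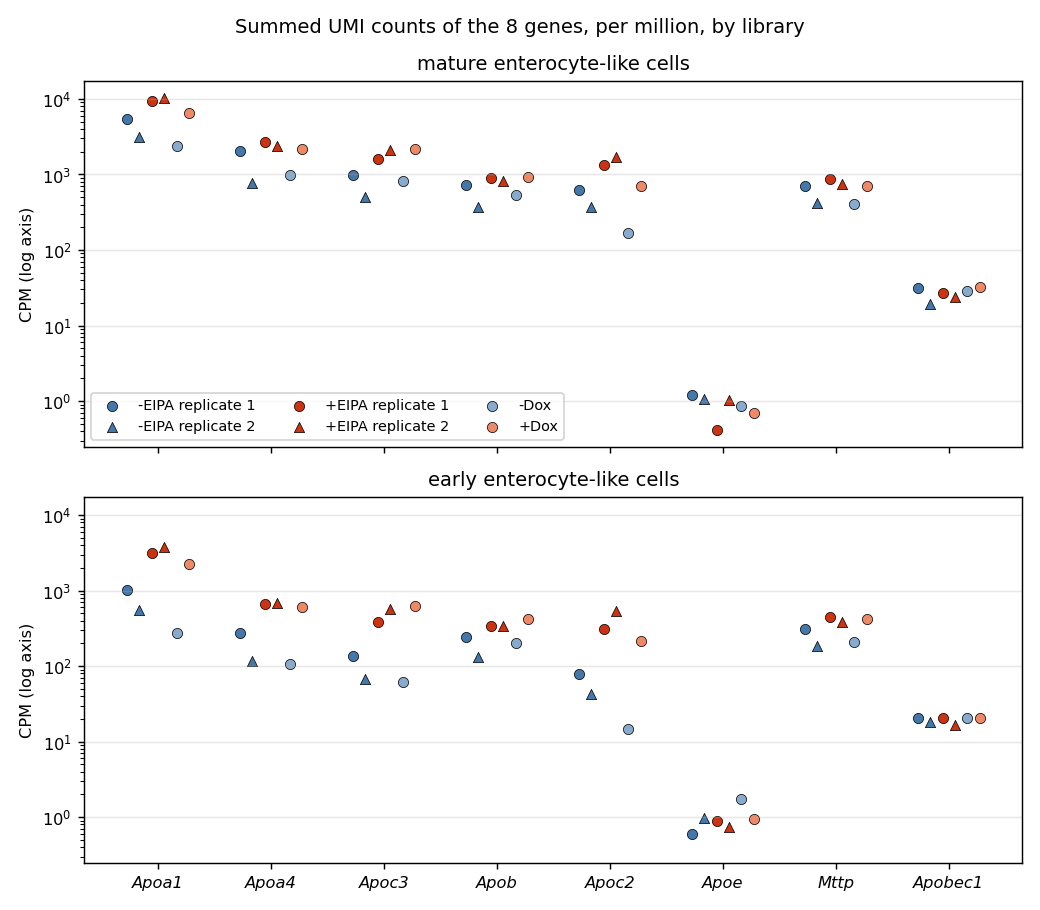
Level of each of the 8 genes in mature (top) and early (bottom) enterocyte-like cells, as CPM of summed UMIs on a log axis, with 1 point per library. Apoa1 is highest in mature enterocyte-like cells of every library, and its 2 +EIPA points (9368 and 10408 CPM) sit above its 2 -EIPA points (5448 and 3162 CPM).

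Early enterocyte-like cells held the same genes at lower levels than mature ones, apart from Apoe. Apoa1 had 1027 and 552 CPM in -EIPA, 3106 and 3785 in +EIPA, 273 in -Dox and 2248 in +Dox. Apoc2 had 79.2 and 43.3 CPM in -EIPA, 311 and 535 in +EIPA, 14.5 in -Dox and 218 in +Dox, and Apoc3 had 135 and 66.5, 387 and 562, 60.9 and 620 CPM in the same order. Apoa4 had 277 and 118 CPM in -EIPA, 674 and 686 in +EIPA, 106 in -Dox and 606 in +Dox. For these 4 apolipoproteins the +EIPA and +Dox libraries lay above all of the -EIPA and -Dox libraries. The 14 early enterocyte markers themselves also summed lower in early than in mature enterocyte-like cells in every library. In -EIPA they stood at 7365 and 5659 against 11077 and 9229 CPM, and in +EIPA at 10289 and 10590 against 14837 and 14465. The early class thus differed from the mature one by lower markers of both lists, and an order in time was not tested. The class joined a cluster of 8326 cells and one of 441 cells, led by Reg1, Reg3b and Rbp2, in which Apoa1 stood at 5127 and 3667 CPM in -EIPA and 8176 and 8053 in +EIPA, near its mature level. In the larger cluster alone Apoa1 had 849 and 350.3 CPM in -EIPA and 2780 and 3219 in +EIPA, and Apoc2 had 54.2 and 21.2 against 243 and 419, so that the small cluster raised the value of -EIPA replicate 2 by over 1.5 times for both genes.

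The early level as a part of the mature level was higher in treated libraries than in their controls for Apoa1, Apoa4, Apoc3 and Apoc2. It was also higher for Apob and Mttp, by less. The early level of Apoa1 was 0.188 and 0.175 of its mature level in -EIPA and 0.115 in -Dox, against 0.332 and 0.364 in +EIPA and 0.348 in +Dox. Apoc2 gave 0.126 and 0.116 in -EIPA, 0.0867 in -Dox, 0.235 and 0.311 in +EIPA and 0.306 in +Dox. From the larger early cluster alone the ratios of Apoc2 were 0.0864 and 0.0565 in -EIPA, 0.0826 in -Dox, 0.184 and 0.244 in +EIPA and 0.290 in +Dox, and those of Apoa1 0.156 and 0.111, 0.107, 0.297 and 0.309, and 0.335 in the same order. Apob gave 0.332 and 0.360 in -EIPA, 0.384 and 0.413 in +EIPA, 0.383 in -Dox and 0.460 in +Dox. Mttp gave 0.436 and 0.443, 0.510 and 0.523, 0.516 and 0.603 in the same order. The ratios of Apobec1 lay between 0.639 and 0.920 over the 6 libraries, with +EIPA inside the range of -EIPA. Within every library the ratios of these 3 genes were above those of Apoa1, Apoa4, Apoc3 and Apoc2. An exact permutation test of 2 libraries against 2 cannot give p under 0.333, so these ratios are a description. The mature enterocyte markers summed to 4182 and 2278 CPM in early against 16037 and 7785 CPM in mature enterocyte-like cells of -EIPA. In +EIPA they summed to 6897 and 7104 against 20096 and 17501 CPM. They summed to 7225 against 23429 CPM in -Dox and to 18554 against 33580 CPM in +Dox. Their early level as a part of the mature level was thus also higher in treated libraries, and their part in the ratios was not tested. The share of all genes with ratios higher in this way was not counted.

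Inside the mature class, the gene levels differed between its 2 large clusters. The third held 328 cells. The largest held 5471 cells at 103% of their libraries' median UMI count, and the next held 3252 cells at 35.0% of it. In the deeper cluster Apoa1 stood at 6541 and 3825 CPM in -EIPA and 9716 and 10412 in +EIPA. In the shallow cluster it stood at 3046 and 1325 CPM in -EIPA and 8455 and 11644 in +EIPA, a wider gap between the groups. Apob stood at 663 and 358 CPM in -EIPA and 686 and 671 in +EIPA in the deeper cluster, against 966 and 435 in -EIPA and 1726 and 1568 in +EIPA in the shallow one. A test of the difference between the clusters was not made, since both come from the same libraries.

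Outside the enterocyte classes, Apoa1 was highest in regenerative-like cells. Their cluster was led by Tm4sf4, Sprr1a and Lgals3, and its leading genes included Clu, Anxa1 and Ly6a, which mark a fetal-like state of repair. It carried Apoa1 at 4256 and 940.1 CPM in -EIPA, 5914 and 4059 in +EIPA, 1017 in -Dox and 3200 in +Dox, with the 2 groups overlapping. In them Apoc2 reached 884 and 122 CPM in -EIPA and 1348 and 1092 in +EIPA, with both +EIPA libraries above both -EIPA libraries. Regenerative-like cells also carried the summed mature enterocyte markers, at 8911 and 1916 CPM in -EIPA, 8871 and 4897 in +EIPA, 8132 in -Dox and 16717 in +Dox. Per marker UMI their Apoa1 was 0.996 to 1.43 of the ratio in mature enterocyte-like cells, so the class is not one without enterocyte genes. In ISC-like cells, the class of stem cells, Apoa1 stood at 36.1 and 23.3 CPM in -EIPA, 89.2 and 102 in +EIPA, 28.4 in -Dox and 120.1 in +Dox. Goblet/Paneth-like cells, which secrete mucus and antimicrobial peptides, had 146 and 79.6 CPM in -EIPA and 429 and 475 in +EIPA, hormone-secreting EEC-like cells 139 and 82.8 in -EIPA and 511 and 470.3 in +EIPA, and chemosensory tuft-like cells 226 and 134 in -EIPA and 412 and 519.7 in +EIPA. The cells left unnamed, 14.02% to 17.4% of each library in 5 clusters, had 149 and 88.1 CPM in -EIPA, 571 and 505 in +EIPA, 95.5 in -Dox and 681 in +Dox. Among them, 2 clusters at 29.2% and 21.8% of their libraries' median UMI count carried more Apoa1, at 730.04 and 513 CPM in -EIPA and 1908 and 2428 in +EIPA in the larger and at 665 and 972 against 6359 and 2772 in the smaller.

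The ratios between the genes differed between classes of the same library. Apob per UMI of Apoa1 was 0.134 and 0.118 in -EIPA mature enterocyte-like cells but 1.92 and 2.54 in ISC-like cells of the same libraries, and 0.0952 and 0.0793 against 0.777 and 0.670 in +EIPA. Mttp per UMI of Apoa1 was 0.129 and 0.134 against 1.00 and 0.787 in -EIPA, and 0.0935 and 0.0708 against 0.384 and 0.225 in +EIPA. In ISC-like cells themselves Apob stood at 69.3 and 59.2 CPM in -EIPA, 69.3 and 68.7 in +EIPA, 57.9 in -Dox and 73.3 in +Dox. Apoc2 per UMI of Apoa1 was 0.460 and 0.411 in Goblet/Paneth-like cells of -EIPA against 0.115 and 0.119 in mature enterocyte-like cells, and 0.234 and 0.265 against 0.141 and 0.165 in +EIPA. Of the clusters in this class, Apoc2 stood in -EIPA at 105 and 42.6 CPM in the larger Paneth-like and 120 and 50.1 in the smaller one, and at 12.4 and 9.78 CPM in the larger Goblet-like and 114 and 57.6 in the small one, which held 39 and 56 cells there. In +EIPA these 4 clusters had 124 and 161, 154 and 127, 30.6 and 44.5, and 172 and 248 CPM in the same order. Apobec1, set against the mature enterocyte markers, was 6.90 to 28.2 times its mature-cell ratio in tuft-like cells over the 6 libraries. Its tuft-like level was 46.1 and 26.5 CPM in -EIPA, 28.3 and 19.5 in +EIPA, 17.6 in -Dox and 19.4 in +Dox. The mature level was 31.7 and 19.5, 26.9 and 23.6, 28.6 and 32.5 CPM in the same order, so the tuft-like CPM lay on either side of it. In the small Goblet-like cluster Apobec1 had 44.6 and 26.8, 64.5 and 33.2, 51.7 and 37.6 CPM, above the mature level in every library.

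The ratio of Apoa1 to the mature markers in Goblet/Paneth-like cells was 0.457 to 0.897 of that in mature enterocyte-like cells, and in tuft-like cells 0.706 to 1.04. The mature markers moved there as well, from 692 and 429 CPM in -EIPA to 1076 and 890.1 in +EIPA in Goblet/Paneth-like cells, and the part of free RNA in the levels outside enterocytes was not tested. With each cell thinned to 2000 UMIs, 86.3% (exact binomial 95% interval 84.1 to 88.4) and 66.8% (64.0 to 69.5) of mature enterocyte-like cells in -EIPA had a UMI of Apoa1, and 97.3% (96.3 to 98.1) and 97.4% (96.4 to 98.2) in +EIPA. The shares in Goblet/Paneth-like cells, a class outside the enterocytes, were 12.8% and 9.65% in -EIPA and 27.7% and 29.1% in +EIPA. Whether that class lacks the gene was not tested. Without thinning the mature shares were 92.1%, 75.1%, 98.5% and 99.1% in the same order, at median depths of 10312.5, 8493, 10318 and 13166 UMIs, and the Goblet/Paneth-like shares were 39.8%, 31.7%, 66.0% and 79.4%, at 9665, 10733.5, 9763 and 12086 UMIs. Thinning to 2000 UMIs left out 2, 15, 1 and 2 of the mature cells, and intervals cover counting error only.

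The activator Apoc2 was detected in fewer mature enterocyte-like cells than Apoa1. At 2000 UMIs per cell, 41.0% and 24.4% of mature enterocyte-like cells in -EIPA had a UMI of Apoc2, against 70.0% and 77.0% in +EIPA. In early enterocyte-like cells the shares were 9.36% and 5.50% against 28.5% and 37.7%. EEC-like cells, set beside them as a class outside the enterocytes, had 4.02% and 0.930% in -EIPA and 6.83% and 8.22% in +EIPA (unthinned 9.31%, 5.28%, 19.8% and 24.3%, at medians of 6044, 6444, 5948 and 6715 UMIs). Whether EEC-like cells lack Apoc2 was not tested. The unthinned mature shares were 62.6%, 45.04%, 86.3% and 91.1%. In the CRISPR-Cas9 organoids 16.9% of mature enterocyte-like cells had a UMI in -Dox and 52.0% in +Dox, and 0.771% and 5.30% of EEC-like cells. Both enterocyte classes lay above the EEC-like share of their own library throughout. Goblet/Paneth-like cells had shares of 8.49% and 5.36% in -EIPA, 12.8% and 15.1% in +EIPA, 3.84% in -Dox and 10.8% in +Dox. The early enterocyte-like shares stood near these in -EIPA and below in -Dox (2.61%), while those of +EIPA and +Dox (22.7%) stood above. Goblet/Paneth-like cells are not a class that lacks Apoc2, as their Apoc2 per UMI of Apoa1 was above that of mature enterocyte-like cells. In -EIPA Apoc2 stood at 79.2 and 43.3 CPM in early enterocyte-like and at 8.27 and 6.18 in ISC-like cells. Whether the early shares of -EIPA and -Dox reflect expression was not tested.

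Where the transcripts sat also divided the genes. Mature enterocyte-like cells held 49.1% to 69.6% of all UMIs of Apoa1 in the 6 libraries, 55.3% to 72.3% of those of Apoc3, 51.5% to 65.8% of Apoa4 and 45.2% to 61.8% of Apoc2. They held 24.9% to 46.8% of Apob, 29.2% to 46.2% of Mttp and 14.6% to 36.5% of Apobec1. Proliferating cells held 7.46% to 23.03% of Apob and 6.38% to 18.8% of Mttp, but 2.40% to 4.85% of Apoa1. Of the few UMIs of Apoe, 40.1% to 52.9% came from proliferating cells, which held 31.3% to 46.7% of all UMIs. These shares depend on the number of cells of each class in a library.

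**Figure D2:**
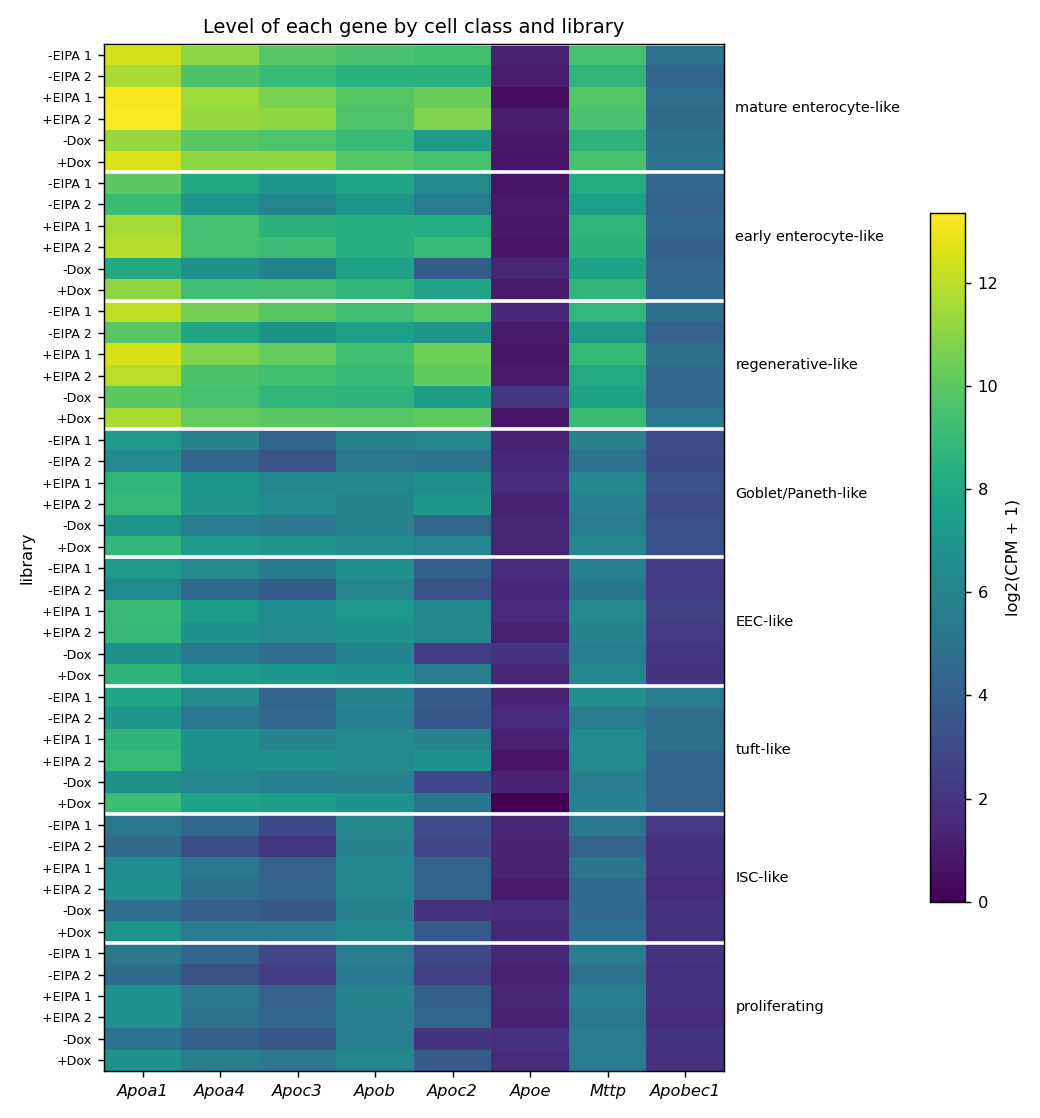
Level of each gene (columns) as log2(CPM + 1) of summed UMIs in each library (rows), grouped by cell class. The colours are brightest in mature enterocyte-like and regenerative-like cells, Apob stays visible in ISC-like cells (57.9 to 73.3 CPM), and the Apoe column is dark throughout (at most 3.43 CPM).

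The effect of EIPA was then compared between the groups, +EIPA against -EIPA, by edgeR's quasi-likelihood test on summed counts with Benjamini-Hochberg adjustment over all genes tested and a threshold of 0.05. In mature enterocyte-like cells 6 of the 8 genes were higher in both +EIPA libraries than in both -EIPA libraries, Apoe was lower in both and Apobec1 overlapped. Of all genes tested in this class 15.6% were higher in both +EIPA libraries. None of the 8 passed the threshold, in a class where 4 of 11457 genes did (0.0349%). The log2 fold changes were 1.76 for Apoc2 (SE 0.31, adjusted p = 0.0988), 1.48 for Apoc3 (SE 0.35, adjusted p = 0.119) and 1.35 for Apoa1 (SE 0.34, adjusted p = 0.124). Those of Apoa4 (0.97), Apob (0.79) and Mttp (0.67) had adjusted p of 0.261, 0.234 and 0.240. Apobec1 was at 0.14, a value that turned to -0.016 when library sizes replaced TMM factors, and Apoe at -0.47. The median over all genes tested was -0.02 and that over the 8 genes 0.88, or 1.64 without -EIPA replicate 1 and 0.38 without -EIPA replicate 2. Library size scaling moved the median of all genes to -0.19 in mature enterocyte-like cells, and from -0.03 to -0.17 in early ones. At an unadjusted p under 0.05 there were 2261 genes, 5 of the 8 among them, and DESeq2 called 3 of the 8 and 2.17% of all genes it tested.

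Same-numbered libraries belonged to 1 experiment by the study's source data, and with the replicate number as a block 4 of the 8 rose in mature enterocyte-like cells, where 4.83% of genes were called. They were Apoc2 (adjusted p = 0.00716), Apoc3 (0.0184), Apoa1 (0.0247) and Apoa4 (0.0499), with log2 fold changes of 1.80, 1.55, 1.41 and 1.15. Without the block the count depended on -EIPA replicate 1, which stood above replicate 2 for all 8 genes. Without it 6 of the 8 were called, where 12.2% of genes were, and without any of the other 3 libraries 0 were.

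In early enterocyte-like cells the differences were larger and the same 6 genes did not overlap between groups, all higher in +EIPA, as were 13.1% of all genes tested. The log2 fold change of Apoc2 was 2.93 (SE 0.39, adjusted p = 0.0575), that of Apoc3 2.38 (SE 0.37, adjusted p = 0.0740) and Apoa1 2.26 (SE 0.32, adjusted p = 0.0610). Apoa4 followed at 1.92 (adjusted p = 0.109), and Apob and Mttp stood at 1.00 and 0.89 (adjusted p = 0.189 and 0.190). None of the 8 passed, as was the case for all 11901 genes tested (0%), of which 1767 had an unadjusted p under 0.05, while DESeq2 called 6 of the 8 and 2.42% of all genes. With the replicate block all 6 rose, with adjusted p from 0.000680 (Apoa1) to 0.0077 (Apob), where 8.23% of genes were called. In the larger early cluster alone none was called without the block, with log2 fold changes of 3.28, 2.52 and 2.46 for Apoc2, Apoc3 and Apoa1, and 6 with it, where 9.58% of genes were. Without -EIPA replicate 1 the fit called 6 of the 8 (4.73% of genes), and without replicate 2 it called 4 (0.431%). Apobec1 was at 0.11, or -0.023 under library size scaling.

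Calls without the block were made in 3 other classes, each on low levels. In Goblet/Paneth-like cells the log2 fold change of Apoc3 was 2.53 and passed (SE 0.29, adjusted p = 0.0474), from 19.2 and 10.2 CPM to 67.9 and 87.3, and that of Apoa1 was 2.10 (SE 0.26, adjusted p = 0.0494), where 0.206% of genes were called. In EEC-like cells Apoc2 rose by 2.60 (SE 0.23, adjusted p = 0.0125), from 16.7 and 8.92 CPM to 69.5 and 71.8, and Apoa1 by 2.20 (SE 0.22, adjusted p = 0.0125), where 0.0895% of genes were called. In tuft-like cells Apoc2 rose by 2.89 (SE 0.30, adjusted p = 0.0091), from 13.8 and 11.1 CPM to 60.0 and 107, and Apoc3 by 2.11 (SE 0.28, adjusted p = 0.0449), and these were the only 2 genes called there (0.0205%). When the 10% of cells with the highest doublet scores were removed, none of the 8 was called in any of these 3 classes. The median log2 fold change of the members tested then went from 0.95 to 0.63 in Goblet/Paneth-like and from 0.98 to 1.71 in tuft-like cells. In EEC-like cells it was 1.12 over 8 members before and 1.09 over 7 after. These 2 medians cover different genes and do not show that the EEC-like change stayed the same. In Goblet/Paneth-like cells none was called without batch correction (0.095% of genes) or without -EIPA replicate 2 (0% of genes). The summed mature markers went from 1577 and 1308 CPM in -EIPA to 1855 and 1699 in +EIPA in EEC-like cells and from 827 and 421 to 898 and 1090 in tuft-like cells, smaller steps than those of the genes called, as in Goblet/Paneth-like cells. In mature enterocyte-like cells too the markers made the smaller step, from 16037 and 7785 CPM in -EIPA to 20096 and 17501 in +EIPA. Apoc2 went there from 627 and 375 CPM to 1324 and 1719. The part of RNA from enterocytes in the calls was not tested.

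Over all cells and in ISC-like cells none of the 8 was called, with 0% of genes called in both. There 1601 and 454 genes had an unadjusted p under 0.05, and DESeq2 called 4 and 3 of the 8, against 2.53% and 0.125% of all genes. The all-cell sums also hold the class shares: mature enterocyte-like cells were 8.44% and 6.31% of cells in -EIPA and 10.97% and 9.53% in +EIPA, and regenerative-like cells 1.32% and 1.75% against 2.84% and 4.62%. With the block 5 of the 8 rose over all cells (5.28% of genes called), 4 in ISC-like cells (6.89%), 6 in Goblet/Paneth-like cells (5.55%), 6 in EEC-like cells (1.68%) and 3 in tuft-like cells (0.225%). Apob in ISC-like cells was not among them, at 0.18 on the log2 scale (SE 0.07, adjusted p = 0.104).

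**Figure D3:**
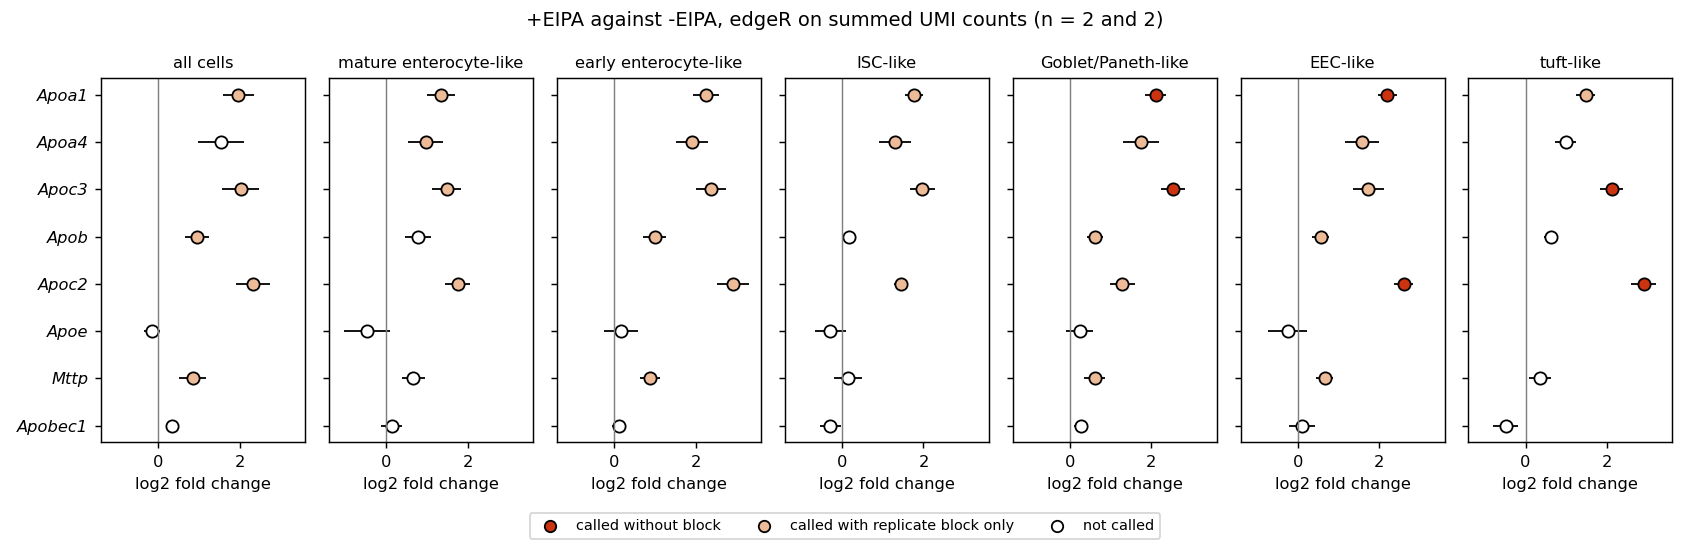
Log2 fold change of each gene, +EIPA against -EIPA (n = 2 and 2 libraries), in each cell class, from edgeR. Bars are SE, dark points passed the threshold without the replicate block, pale points only with it and open points neither way. Within early enterocyte-like cells Apoc2, Apoc3 and Apoa1 lie farthest right (2.93, 2.38 and 2.26), with Apobec1 and Apoe at 0.11 and 0.18. Apoc3 lies at 2.53 in Goblet/Paneth-like cells, Apobec1 at -0.49 in tuft-like and Apoe at -0.47 in mature enterocyte-like cells.

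Set against the mature enterocyte markers in the same cells, the 8 genes separated. Per marker UMI in mature enterocyte-like cells, Apoc2 had 0.0391 and 0.0482 in -EIPA and 0.0659 and 0.0982 in +EIPA, and Apoa1 had 0.340 and 0.406 against 0.466 and 0.595. Apoc3 had 0.0610 and 0.0649 in -EIPA and 0.0796 and 0.122 in +EIPA. Apoa4 had 0.129 and 0.0993 against 0.132 and 0.136. For these 4 genes both +EIPA ratios lay above both -EIPA ratios, for Apoa4 by little. The share of all genes whose ratios to the markers separated in this way was not counted. The ratios of Apob overlapped, at 0.0454 and 0.0479 against 0.0444 and 0.0471. Those of Apobec1 were lower in both +EIPA libraries, at 0.00134 and 0.00135 against 0.00198 and 0.00250. Those of Mttp were lower too, by little, at 0.0436 and 0.0421 against 0.0438 and 0.0542, and those of Apoe on 6 and 18 UMIs against 13 and 13. Each is a description of 4 libraries with no test.

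**Figure D4:**
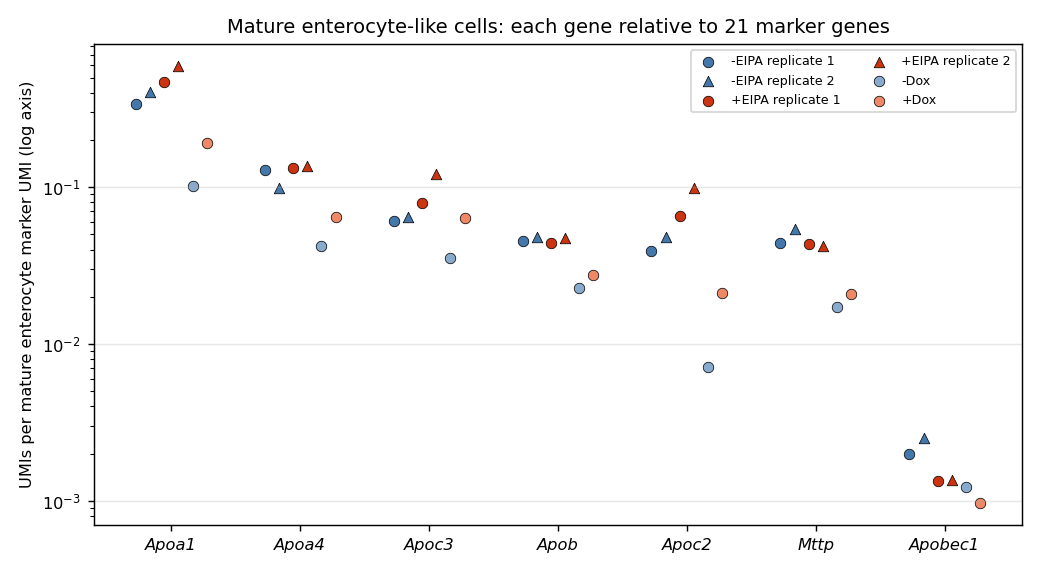
UMIs of each gene per UMI of 21 mature enterocyte markers in mature enterocyte-like cells, on a log axis, with 1 point per library. Apoc2, Apoc3, Apoa1 and, by little, Apoa4 sit higher in +EIPA than in -EIPA, Apob overlaps, and the CRISPR-Cas9 organoids lie below the -EIPA libraries except for Apoc3 in +Dox (0.0640).

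The Dox-induced organoids gave a comparison of 1 library with 1 library, so ratios are given without a test, for genes with at least 50 UMIs over both. Over all cells, 6 of the 8 genes were at least 2-fold higher in +Dox, where 6.24% of genes were, and none was 2-fold lower. With strict limits on cells it was 5 of 8 (6.27%), without Mttp. Apoc2 was farthest, at 24.02 and 186 CPM, a log2 ratio of 2.95, followed by Apoa1 (2.28), Apoc3 (2.20), Apoa4 (1.88), Apob (1.14) and Mttp (1.00). Apobec1 was at 0.44 and Apoe at -0.58. The median over all genes was -0.03 and that over the 8 genes 1.51.

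Within mature enterocyte-like cells 4 of 7 genes were at least 2-fold higher (2.7% of genes were). Apoc2 went from 167 CPM (95% Poisson interval 161 to 173) in -Dox to 713 (703 to 722) in +Dox, and Apoa1 from 2374 (2353 to 2395) to 6455 (6428 to 6482). In early enterocyte-like cells it was 6 of 8 (3.22% of genes), or 5 of 8 with strict limits on cells (3.07%) and 4 of 7 without batch correction (1.34%), and Apoc2 went from 14.5 CPM (13.1 to 15.9) to 218 (212 to 224), a log2 ratio of 3.91, against 3.35 for Apoc3, 3.04 for Apoa1 and 2.51 for Apoa4. These intervals cover counting error only. Apobec1 had 20.5 CPM (18.9 to 22.2) and 20.7 (19.0 to 22.6) there, a difference not detectable at this depth.

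The 4 surface apolipoproteins were at least 2-fold higher in ISC-like (4 of 8 genes, with 0.992% of all genes), Goblet/Paneth-like (4 of 8, 1.69%), EEC-like (4 of 6, 1.15%) and proliferating cells (4 of 8, 2.01%). In tuft-like cells 3 of 5 were (1.47%), and in regenerative-like cells 5 of 7 (4.06%), Apoa4 not among them. Without batch correction the regenerative-like count was 2 of 7 (2.52% of genes). With doublets removed the tuft-like count was 2 of 5 (1.40%) and the EEC-like count 3 of 6 (1.06%), without Apoa4. Summed mature markers were higher in +Dox than in -Dox too, at 33580 against 23429 CPM in mature and 18554 against 7225 CPM in early enterocyte-like cells. Per marker UMI in mature enterocyte-like cells, Apoc2 had 0.00712 in -Dox and 0.0212 in +Dox, Apoa1 0.101 and 0.192, and Apob 0.0226 and 0.0275. Over all cells Apoc2 had the largest and Apoe the lowest value of the 8 genes both in this ratio and in the EIPA fold change (2.33 and -0.15).

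**Figure D5:**
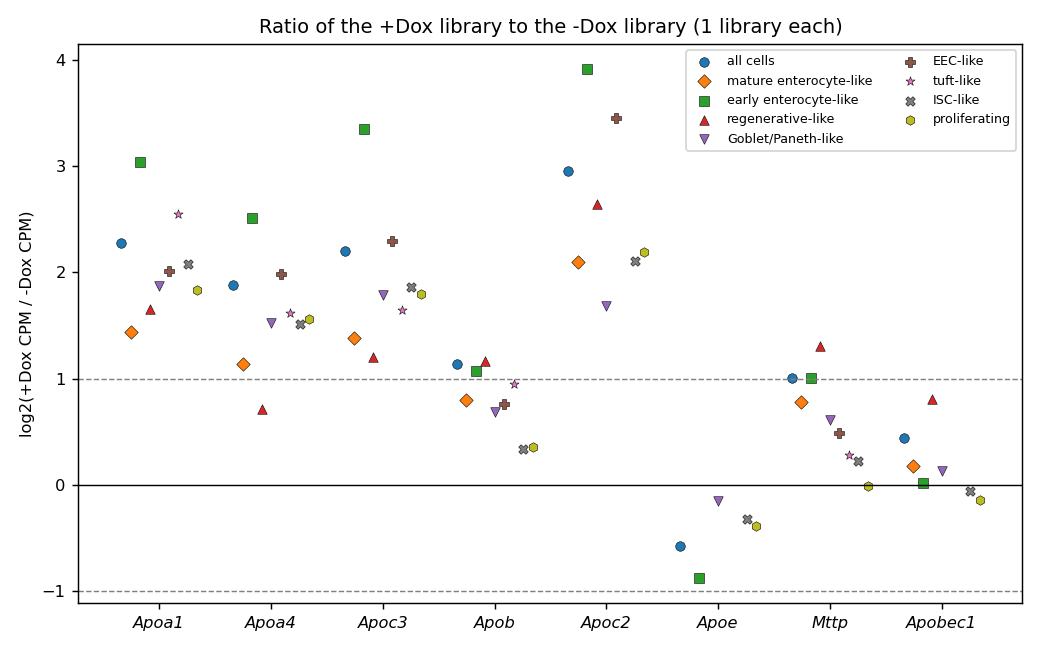
Log2 ratio of the +Dox to the -Dox library for each gene, with 1 marker per cell class and genes under 50 UMIs left out. Apoc2 reaches 3.91 in early enterocyte-like cells, Apob lies between 0.34 and 1.17, Mttp between -0.013 and 1.31 and Apobec1 between -0.14 and 0.81.

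Other genes of lipid handling were taken from 7 lists of 92 genes, among them other apolipoproteins, fatty acid uptake, triglyceride synthesis, chylomicron lipidation, sterol transport, editing cofactors and regulators. Without the block, 3 of 79 tested rose with EIPA in Goblet/Paneth-like cells, and edgeR called none of the list in the other classes, where the background is that given above. Fold changes above 0 were found for 61 of 79 in early and 58 of 80 in mature enterocyte-like cells, with medians of 0.28 and 0.38 on the log2 scale against -0.03 and -0.02 over all genes. The 3 were Fabp1, a fatty acid binding protein (734.6 and 642 CPM in -EIPA, 1585 and 1490.4 in +EIPA, adjusted p = 0.0302), Rbp2, which binds retinol (229 and 225 against 449 and 426 CPM, adjusted p = 0.0302), and Mogat2, which makes diglyceride from monoglyceride (7.74 and 7.93 against 17.5 and 14.0 CPM, adjusted p = 0.0474). When the cells with the highest doublet scores were removed, 0 of 12093 genes were called in Goblet/Paneth-like cells. The calls of Fabp1, Rbp2 and Mogat2 were thus lost under that setting. With the block, 25 of 79 rose and 3 fell in early enterocyte-like cells (8.23% of all genes called in either direction) and 9 of 80 rose and 2 fell in mature ones (4.83%).

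In the early class 7 of 11 genes of fatty acid uptake rose with the block, among them Cd36, a fatty acid receptor (log2 fold change 1.75, adjusted p = 0.00369), and Fabp6, the bile acid binding protein of the ileum, fell by 1.31 (adjusted p = 0.0442). Of the chylomicron lipidation list 8 of 17 rose, by 0.48 for Plin3 to 0.75 for Smlr1, smaller steps than those of the apolipoproteins. In the mature class 3 of 11 and 0 of 17 of these lists rose. Of the other lists, sterol transport had 4 of 10 risen in early and 2 in mature cells, triglyceride synthesis 5 and 2 of 12, regulators 1 and 0 of 22, other apolipoproteins 0 of 3 and 2 of 4, and editing cofactors 0 of 4 in both. In early cells 1 gene of triglyceride synthesis and 1 regulator fell. In mature cells 1 gene of triglyceride synthesis and 1 of sterol transport fell. Abca1, which exports cholesterol to ApoA-I, rose by 3.68 (adjusted p = 0.00304) in early and by 3.05 (adjusted p = 0.00451) in mature cells. In the Dox comparison 9 of 79 pathway genes were at least 2-fold higher and 2 lower in early enterocyte-like cells, and 3 and 3 of 80 in mature ones. Of all genes 3.22% were higher and 2.09% lower in the early class, and 2.7% and 7.01% in the mature class. Cd36 (log2 ratio 1.93) was among the 9, and Fabp6 (-2.28) was one of the 2.

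Over the 48 sums of 8 classes in 6 libraries, the genes whose log2(CPM + 1) ran most like each member differed by group. The sums share libraries and depth, so the values of Pearson r among 10481 genes are a description. Apoa1 was most like Apoa4 (0.985), then 2010106E10Rik (0.980) and Gsta1 (0.975). Apoa4 was most like Apoc3 (0.986), and Apoc3 like Apoa4, then Cyp3a11 (0.982) and Apoa1 (0.975). Apoc2 was most like Gda (0.966), then Apoa1 (0.958) and Dpep1 (0.955). Apob was most like Pdlim2 (0.970), Slc3a1 and Ms4a10, and Mttp most like Cndp2 (0.989), Ces2c and Cideb, which promotes lipidation of lipoproteins (0.983). Apobec1 stood apart with Trim40 (0.963), Abcc3 and Espn. The highest value for Apoe was 0.741, with Kbtbd8, at counts too low to read.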

How the data were processed

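The deposited values were UMI counts per gene and cell barcode, without normalization, which the authors made with Cell Ranger 6.1.2 on GRCm38 (mm10). Barcodes entered the analysis if they had 1000 genes or more and less than 20% of UMIs from mitochondrial genes. These limits are not the study's, whose text states none. Cells were clustered in Python 3.11.15 (45 principal components of 3000 variable genes, Harmony correction by library, Leiden resolution 0.8), leaving out the 8 genes and all pathway genes, and named from marker lists. Putative doublets stayed in, and an alternative left out the 10% of cells with the highest Scrublet score per library. The files gave no cell type annotation, so class names are rebuilt and values may differ from the study's classes.

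Counts were summed per class and library, and -EIPA was compared with +EIPA in R 4.3.3 with edgeR 4.0.16 (TMM, filterByExpr, quasi-likelihood F test, no block), with DESeq2 1.42.0 as an alternative. Both tools were tested on simulated data. The replicates are separate libraries, and p-values measure the spread between them. The study's source data list same-numbered libraries as 1 experiment, and their deviations from the group means correlated at 0.758 over all cells, 0.322 in mature and 0.516 in early enterocyte-like cells, and 0.206 to 0.745 in the other classes. The block leaves 1 residual degree of freedom, and its very small p-values rest on a spread shared across genes. Dox libraries were compared as CPM ratios with exact Poisson intervals.

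The members, lists and tests were chosen with earlier results of these data known. Genes named outside the 8 members were pathway genes past the threshold, the 3 genes most like each member and leading genes of clusters. Gm47528 and HNF4A were named without values. The gene targeted in the CRISPR-Cas9 organoids is not reported here. Pathway genes named with the block or the Dox ratios, and Vim, Adgre1 and Cdh5, were chosen after their values were seen.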

Additional observations from a re-analysis of the deposited data

Results flagged for a closer look

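Barcodes under the limits on cells were used in no comparison, and in them 4 of the genes stood higher in both +EIPA libraries than in both -EIPA libraries. The share of all genes that did so in these barcodes was not counted, so the 4 are a description. In the kept mature and early enterocyte-like cells it was 15.6% and 13.1%. In the barcodes left out, the mean of the 2 +EIPA libraries was 3070.3 CPM for Apoa1, against 1245 and 629 CPM in the -EIPA libraries. It was 942 CPM for Apoa4 against 594 and 210.3 CPM, 347 CPM for Apoc3 against 113 and 60.6 CPM, and 302 CPM for Apoc2 against 80.3 and 57.1 CPM. For Apob (678 and 434 CPM in +EIPA, 460 and 172 in -EIPA) and Mttp (552 and 353, 437 and 165) the libraries overlapped. Those barcodes had a median of 970 to 2496.5 UMIs.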

How the results depend on the processing

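Without the replicate block the fit called 0 of the 8 genes over all cells and in mature enterocyte-like, early enterocyte-like and ISC-like cells, and 2 each in Goblet/Paneth-like, EEC-like and tuft-like cells. With the replicate block it called 5, 4, 6, 4, 6 and 6 in the first 6 of these, and 3 in tuft-like cells. Without a filter on low counts the counts were 3, 6, 6, 4 and 6 in the first 5 and 4 in tuft-like cells (0.866%, 7.33%, 5.63%, 0.669%, 2.09% and 0.453% of all genes), and with DESeq2 4, 3, 6 and 3 in the first 4. Library size scaling called 1 in tuft-like cells (0.0102% of genes). With the 10% highest doublet scores removed, a rule chosen after seeing the data, 3 were called in early enterocyte-like cells (1.54% of genes) and 0 in Goblet/Paneth-like (0%), EEC-like (0.00856%) and tuft-like cells (0%). Strict limits (2000 genes, 10% mitochondrial) called 2 in early enterocyte-like (0.675%) and 4 in tuft-like cells (0.182%). Without batch correction 1 was called in early enterocyte-like (0.240%), 3 in ISC-like (5.74%) and 0 in Goblet/Paneth-like cells (0.095%), and the Dox count in regenerative-like cells was 2. Uncorrected ISC-like clusters divided by library. One held 11 and 42 cells of -EIPA against 172 and 2493 of +EIPA, and another 426 and 1191 against 139 and 65. The 3 ISC-like calls thus compare unlike clusters between the groups. Of the mature clusters, each tested alone after seeing the data, the deeper called 0 (0% of genes), the shallow one 2 (1.05%) and the small one 3 (0.271%), and of the early clusters the larger called 0 (0%) and the small one 1 (0.367%). With the replicate block these clusters called 4 (6.99%), 3 (1.54%), 6 (10.2%), 6 (9.58%) and 5 (3.52%) in the same order. The cause of these changes was not tested.

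Leaving out 1 library gave 0 to 5 calls over all cells, 0 to 6 in mature enterocyte-like, 0 to 6 in early enterocyte-like, 0 to 2 in ISC-like, 0 to 4 in Goblet/Paneth-like, 2 to 4 in EEC-like and 3 to 5 in tuft-like cells. The share of all genes called moved as well, from 0% to 0.830%, 0.0169% to 12.2%, 0.0413% to 4.73%, 0% to 0.0414%, 0% to 0.923%, 0.0237% to 0.262% and 0.313% to 1.13% in the same order. The median log2 fold change of the members was lowest without -EIPA replicate 2 and highest without -EIPA replicate 1 in all 7, at 0.77 and 2.01, 0.38 and 1.64, 1.01 and 2.12, 0.41 and 1.17, 0.69 and 1.46, 0.64 and 1.76, and 0.54 and 1.51. The highest count of each class came without -EIPA replicate 1. Other omissions that moved a count by over 1.5 times were -EIPA replicate 2 (4 in early enterocyte-like and 0 in Goblet/Paneth-like cells) and +EIPA replicate 2 (4 in tuft-like cells). These fits take the spread of a single remaining library from that of the opposite group.

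Directions reversed only for log2 fold changes that were not called. Apobec1 in mature enterocyte-like cells turned to -0.016 under library size scaling, -0.034 in the deeper cluster and -0.19 in the small one, and in early enterocyte-like cells to -0.023 under library size scaling, -0.063 without batch correction and -0.12 in the small cluster. Apoe in early enterocyte-like cells turned to -0.089 with doublets removed and -0.15 without batch correction, which also turned Apob to -0.33 and Apoe to 0.12 in ISC-like cells. Leaving out 1 library, Apoe ranged from -1.31 to 0.030 in mature, -0.070 to 0.55 in early, -0.62 to 0.030 in ISC-like, -0.011 to 0.52 in Goblet/Paneth-like and -0.58 to 0.036 in EEC-like cells. Apobec1 ranged from -0.21 to 0.59 in mature, -0.025 to 0.25 in early and -0.10 to 0.30 in EEC-like cells, and Mttp from -0.28 to 0.69 in ISC-like and -0.15 to 0.89 in tuft-like cells. Of the other values for single genes under alternatives that kept all 4 libraries, 304 kept direction and side of the threshold, 87 came to pass it and 9 ceased to. Apoe is limited by depth.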
